A study of Mus musculus with 140 samples.

Results

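The genes Pdk4, Pdk2, Pdp1, Ucp3 and Angptl4 take part in the switch of skeletal muscle from glucose to fat as fuel, and they are 5 of the 11461 genes measured in mouse gastrocnemius, a calf muscle of mainly fast fibres. They were taken by symbol and were chosen by earlier results of these same libraries, namely the differences between sham arms at equal clock time, the daily profile and the exercise effect. Those values are given below as a description with no test. The difference between exercised arms holds no sham value and was tested, but it is not independent of the choice: its SE comes from a model of all 24 groups, sham groups included, and the exercised libraries also enter the exercise effect and the daily profile. Fitted with the libraries of the 2 compared groups alone, Pdk4 passed at ZT12 and ZT20, Ucp3 at ZT4, ZT16 and ZT20 and Angptl4 at ZT8 and ZT16, while Ucp3 did not pass at ZT8 (adjusted p = 0.086; limma) or ZT12 (adjusted p = 0.25; limma). That fit takes the sham groups out of the SE, but its exercised libraries still entered the choice. All 5 genes had reads in each library.

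Male C57B6/J mice aged 10 to 11 weeks, all with free access to a standard diet before and after the treadmill, spent 1 h on a treadmill that moved (exercised) or stood still (sham). The hour began at ZT3, early in the rest phase, or at ZT15, early in the active phase; lights go on at ZT0 and off at ZT12. Muscle was taken 0, 4, 8, 12, 16 and 20 h after the treadmill, so that the animals of both arms met at the same 6 clock times. Phase, treatment and hour formed 24 groups, of which 18 held 6 libraries, 5 held 5 and 1 held 4, the exercised rest-phase mice at 0 h; 68 libraries came from exercised and 69 from sham mice. At a given clock time the recent arm is the one 0, 4 or 8 h off the treadmill (the rest-phase arm at ZT4, ZT8 and ZT12, the active-phase arm at ZT16, ZT20 and ZT0). The earlier arm had left it 12, 16 or 20 h before. Hours since the treadmill and the phase of the treadmill cannot be told apart at one clock time.

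Pyruvate enters the mitochondrial fuel cycle through the pyruvate dehydrogenase complex. The kinases encoded by Pdk4 and Pdk2 phosphorylate the complex and shut it, and the phosphatase encoded by Pdp1 opens it again. Muscle is known to make Pdk4 mRNA in fasting and after exercise, under nuclear receptors of the PPAR family, FoxO factors and the glucocorticoid receptor, while fatty acids take the place of glucose. Ucp3 encodes a carrier of the inner mitochondrial membrane that follows fatty acid supply, and Angptl4 encodes a secreted inhibitor of lipoprotein lipase, the enzyme that frees fatty acids from circulating fat.

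Values are the deposited ones, in a unit inferred as reads divided by a scaled library size. Pdk4 (ENSMUSG00000019577.6, GRCm38 chromosome 6, 5483351 to 5496309, minus strand) had a mean value of 156 over all libraries and ranged from 27.95 to 741. Pdp1 (ENSMUSG00000049225.14, chromosome 4, 11958184 to 11966452, minus strand) had a mean value of 120.9 and ranged from 61.5 to 216. Pdk2 (ENSMUSG00000038967.13, chromosome 11, 95026258 to 95041354, minus strand) had a mean value of 80.6 and ranged from 34.1 to 139.4. Ucp3 (ENSMUSG00000032942.14, chromosome 7, 100472990 to 100486432, plus strand) had a mean value of 45.8 and ranged from 11.4 to 125.4. Angptl4 (ENSMUSG00000002289.15, chromosome 17, 33773750 to 33781830, minus strand) was the lowest of the 5, with a mean value of 5.05 and a range of 0.474 to 27.3. Per kb of exon, the mean level was 44.6 for Pdk4, 26.8 for Pdp1, 25.5 for Pdk2, 14.6 for Ucp3 and 1.43 for Angptl4. Angptl4 rested on 3 to 471 reads per library with a median of 42, so its single values are the least precise, whereas Pdk4 had at least 174 reads in each library. Differences below are of log2(value + 0.5) with their standard error (SE) from limma, and adjusted p values are by the Benjamini-Hochberg method over all 11461 genes. Between arms, rose and fell mean a passing difference, higher or lower in the recent than in the earlier arm.

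Pdk4 and Ucp3 had the most similar profiles among the 5 genes, and the RefSeq sequences of the 250 bases before their starts (GRCm38.p6) are shown for that reason. Letters matching AGGTCA (core element of nuclear receptors), TGTTTAC (forkhead factors), AGAACA (core element of the glucocorticoid receptor) or CACGTG (E-box) on either strand are in capitals; these motifs do not overlap in these windows. The Pdk4 window is chr6:5496279-5496528 on the minus strand and the Ucp3 window chr7:100472741-100472990 on the plus strand, both 5′ to 3′. The starts here are from RefSeq, while the gene positions given above are from GENCODE. By the GENCODE positions the Pdk4 window ends inside the gene, and the last base of the Ucp3 window is the first of the gene.
Pdk4: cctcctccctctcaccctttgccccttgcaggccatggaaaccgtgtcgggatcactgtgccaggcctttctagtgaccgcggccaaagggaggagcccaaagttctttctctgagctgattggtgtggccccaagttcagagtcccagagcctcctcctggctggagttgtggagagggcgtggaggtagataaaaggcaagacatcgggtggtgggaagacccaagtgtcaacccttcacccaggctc
Ucp3: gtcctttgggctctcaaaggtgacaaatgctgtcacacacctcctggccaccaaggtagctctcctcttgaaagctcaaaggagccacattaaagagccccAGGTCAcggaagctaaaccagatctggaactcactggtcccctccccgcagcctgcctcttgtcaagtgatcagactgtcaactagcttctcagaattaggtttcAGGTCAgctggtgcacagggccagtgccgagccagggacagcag
The Ucp3 window held AGGTCA at 2 places, beginning 149 and 44 bases before the start, a motif found in 14.02% of 32851 such windows. The Pdk4 window held none of the letters searched. The other motifs occurred in 16.1% (AGAACA), 6.02% (CACGTG) and 3.17% (TGTTTAC) of windows.

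Pdk4 was higher in the recent than in the earlier exercised arm, most of all at ZT20. There the 5 libraries taken 4 h after active-phase exercise had values of 181, 203, 218, 262 and 424, and the 6 libraries taken 16 h after rest-phase exercise ran from 27.95 to 62.8 with a median of 36.04. The groups did not overlap, as held in this direction for 0.401% of all genes. The difference was 2.61 ± 0.37 (SE; adjusted p = 2.2e-06; limma), at a clock time at which 0.131% of all genes rose. Against sham mice of the same phase and hour, the recent group differed by 0.12 ± 0.37, a description with no test. The earlier group had the lowest Pdk4 mean of the 24 groups. At ZT12 Pdk4 had values of 169 to 401 with a median of 239 in mice 8 h after rest-phase exercise, against 46.4 to 110 with a median of 72.5 in mice 20 h after active-phase exercise. All 6 recent libraries stood above all 6 earlier ones, which held for 0.471% of all genes, and the difference was 1.77 ± 0.36 (adjusted p = 0.0089; limma), where 0.0698% of all genes rose. That pass was lost without replicate 3 of every group (1.64; adjusted p = 0.13).

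At the other clock times the exercised arms overlapped for Pdk4. At ZT8 its values were 175 to 475 (median 319) in the recent and 45.6 to 258 (median 130) in the earlier arm, a difference of 1.31 ± 0.36 that did not pass (adjusted p = 0.074; limma). At ZT0 they were 193, 210, 326, 521 and 741 in the recent arm and 38.9 to 259 (median 143.3) in the earlier arm, a difference of 1.54 ± 0.37 that did not pass either (adjusted p = 0.086; limma); at this clock time 0.00873% of all genes rose. The difference was 0.94 ± 0.36 at ZT16 (adjusted p = 0.13; limma). At ZT4, directly after rest-phase running, the arms lay closest, at 126.8, 149, 230 and 257 in the recent arm and 112.6 to 273 (median 153) in the earlier arm, and the difference was 0.19 ± 0.40. Over the 6 clock times together the arms differed (adjusted p = 2.1e-12; limma F test), a test that 4.18% of all genes passed.

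Ucp3 passed as higher in the recent than in the earlier exercised arm at 5 of the 6 clock times. At ZT4 its values were 52.8, 76.8, 101.3 and 103.1 directly after rest-phase exercise, against 27.8 to 36.4 (median 32.5) 12 h after active-phase exercise. The groups did not overlap (1.33% of all genes), and the difference was 1.32 ± 0.30 (adjusted p = 0.0039; limma; 0.593% of all genes rose); without replicate 5 or 6 of every group the pass was lost (adjusted p = 0.099 and 0.073). At ZT8 its values were 58.2 to 125.4 (median 93.7) in the recent and 16.4 to 52.7 (median 36.01) in the earlier arm, again without overlap (0.305% of all genes). This difference was 1.53 ± 0.26 (adjusted p = 0.00013; limma; 0.244% of all genes rose), and missed the threshold when the libraries of these groups were fitted alone (adjusted p = 0.086).

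At ZT16, directly after active-phase exercise, Ucp3 had values of 51.8 to 81.1 (median 65.4), against 19.2 to 36.9 (median 22.8) 12 h after rest-phase exercise. The arms did not overlap, as held for 1.87% of all genes, and differed by 1.41 ± 0.26 (adjusted p = 8.4e-05; limma; 2.6% of all genes rose). At ZT20 its values were 49.5, 68.99, 78.6, 84.4 and 96.9 in the recent arm and 14.2 to 28.2 (median 22.3) in the earlier arm. This was the largest of its 6 differences, at 1.82 ± 0.28 (adjusted p = 4.2e-06; limma), where 0.131% of all genes rose. The arms did not overlap, as held for 0.401% of all genes. Against sham mice of the same phase and hour, the recent group differed by -0.17 ± 0.28, a description with no test. At ZT12 the values of 34.99 to 75.3 (median 50.02) in the recent arm overlapped those of 11.4 to 37.5 (median 24.7) in the earlier arm. That difference of 1.11 ± 0.26 passed narrowly (adjusted p = 0.036; limma), where 0.0698% of all genes rose. It kept its pass in 5 of 12 fits that each left out 1 exercised library. Without replicate 3 of the active-phase mice at 20 h it was 0.91 (adjusted p = 0.28), and without replicate 3 of every group 0.79 (adjusted p = 0.81). At ZT0 the difference was 0.71 ± 0.28 and did not pass (adjusted p = 0.49; limma). Over all clock times the adjusted p was 4.4e-16 (limma F test), a test that 4.18% of all genes passed.

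Angptl4 passed as higher in the recent than in the earlier exercised arm at 2 clock times. At ZT8 its values were 7.38 to 24.7 (median 13.4) 4 h after rest-phase exercise, against 0.841 to 6.21 (median 2.08) 16 h after active-phase exercise. The arms did not overlap (0.305% of all genes), and the difference was 2.40 ± 0.40 (adjusted p = 8.0e-05; limma; 0.244% of all genes rose). At ZT16 its values were 2.30 to 7.35 (median 4.34) in the recent and 1.11 to 2.13 (median 1.37) in the earlier arm, also without overlap (1.87% of all genes). This difference was 1.35 ± 0.40 (adjusted p = 0.039; limma) at the clock time with the most calls, where 2.6% of all genes rose. It kept its pass in 4 of 12 fits that each left out 1 exercised library, and was 1.21 (adjusted p = 0.13) without replicate 1 of the active-phase mice at 0 h. It missed the threshold without any 1 replicate number of every group (adjusted p = 0.055 to 0.18), and it missed the threshold with edgeR on the recovered reads (adjusted p = 0.099). At ZT20 and ZT0 the differences were 1.24 ± 0.42 and 0.69 ± 0.42, and neither passed. Over all clock times together the arms differed (adjusted p = 1.7e-06; limma F test), a test that 4.18% of all genes passed.

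Angptl4 is also made by fat cells, so the 7 adipocyte markers (Adipoq, Plin1, Cfd, Retn, Cidec, Lep and Car3) were summed in the same groups. The sum follows the most abundant of them, and whether muscle fibres add to it was not tested. At ZT8 the sum was 1100 ± 385 (SD, n = 6) in the recent and 1098 ± 155 (SD, n = 6) in the earlier exercised arm. At ZT16 it was 1299 ± 86.4 (SD, n = 6) in the recent and 844 ± 171 (SD, n = 6) in the earlier exercised arm, and its part in the Angptl4 difference at ZT16 was not tested. In sham mice at ZT16, where Angptl4 also differed, the sum was 1096 ± 168 (SD, n = 6) in the recent and 1109 ± 212 (SD, n = 6) in the earlier arm. In whole muscle, fewer cells of a type and less RNA per cell cannot be told apart. Lep, the adipocyte hormone leptin, was the only one of the 7 markers to pass and the lowest of them, with a mean value of 2.29. At ZT12 it fell in the recent arm by 1.47 ± 0.36 in exercised mice (adjusted p = 0.045; limma; 0.096% of all genes fell). In sham mice it fell there by 1.72 ± 0.37 (adjusted p = 0.041; limma; 0.0262% of all genes fell). The adipocyte sum at ZT12 was 994 ± 214 (SD, n = 6) in the recent and 1287 ± 402 (SD, n = 6) in the earlier exercised arm. In sham mice it was 1030 ± 174 (SD, n = 5) and 1232 ± 182 (SD, n = 6). Angptl4 differed at ZT12 by 0.39 ± 0.40 in exercised and by 0.45 ± 0.42 in sham mice.

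**Figure D1:**
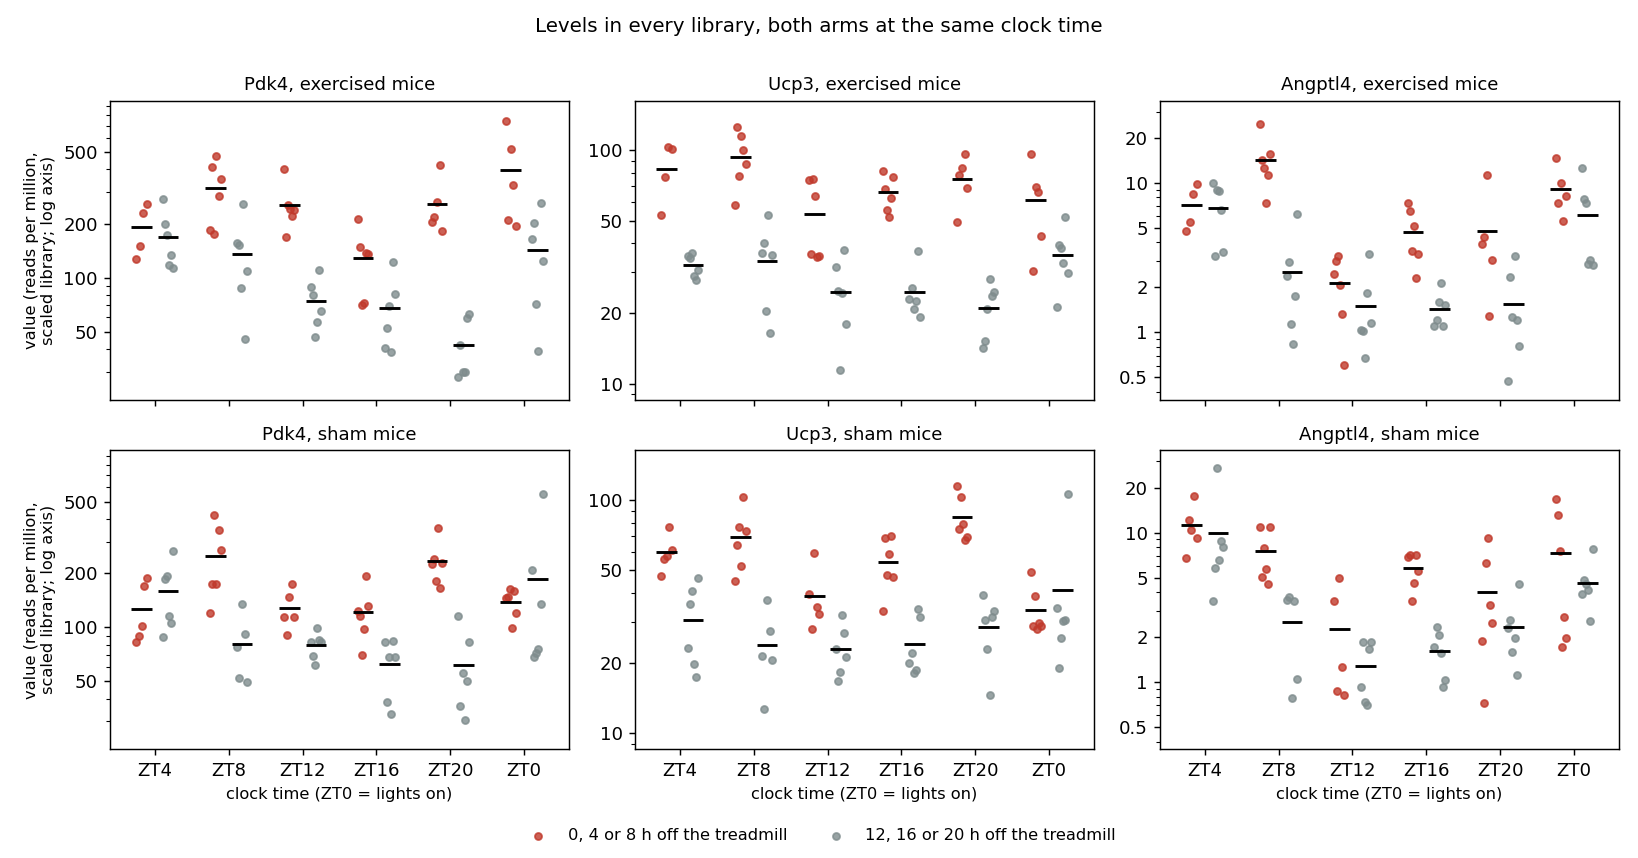
Values of Pdk4, Ucp3 and Angptl4 (log axis, unit inferred as reads divided by a scaled library size) in each library at 6 clock times. Exercised mice are above and sham mice below. Red points are the arm 0, 4 or 8 h off the treadmill, grey points the arm 12, 16 or 20 h off it, and bars are means. At ZT20 the recent exercised libraries of Pdk4 start at 181 and the earlier ones end at 62.8.

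Pdk2, the second kinase gene, passed at no clock time. Its exercised arms overlapped at every clock time, with differences from -0.58 ± 0.30 at ZT8 to 0.61 ± 0.30 at ZT16, none of which passed. At ZT8 its values were 37.6 to 123.8 (median 50.4) in the recent and 45.8 to 134.6 (median 100.5) in the earlier exercised arm, and with the transcript-length slope of each library as a covariate the difference there was -0.07 ± 0.17. The test over all clock times did not pass (adjusted p = 0.40; limma F test). With the slope as a covariate it did (adjusted p = 0.011; limma F test), where 1213 of all 11461 genes passed. It also did with limma array weights (adjusted p = 0.00015; limma F test), where 8872 of all genes passed. The slope is the tendency of a library to show long transcripts higher than the mean of all libraries. Per doubling of length the slope took values of -0.29 to 0.41.

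Pdp1, the phosphatase that acts against the Pdk kinases, was lower in the recent exercised arm at all 6 clock times, with log2 differences of -0.29 to -0.51. The arms overlapped each time and no single clock time passed. At ZT8 its values were 75.2 to 116.2 (median 102.1) in the recent and 114.5 to 181 (median 145) in the earlier arm, a difference of -0.51 ± 0.17 (adjusted p = 0.16; limma). At ZT20 they were 83.9 to 112.4 (median 92.0, n = 5) in the recent and 87.9 to 169 (median 141.9, n = 6) in the earlier arm, a difference of -0.46 ± 0.18 (adjusted p = 0.60; limma). Over the 6 clock times together the arms differed (adjusted p = 0.0071; limma F test), where 4.18% of all genes passed. That call held in each of 68 fits that left out 1 exercised library, and it was lost without replicate 1, 3 or 5 of every group (adjusted p = 0.066 to 0.075). With the length slope as a covariate 4 single clock times passed, led by ZT8 at -0.79 ± 0.10 (adjusted p = 4.9e-09; limma).

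**Figure D2:**
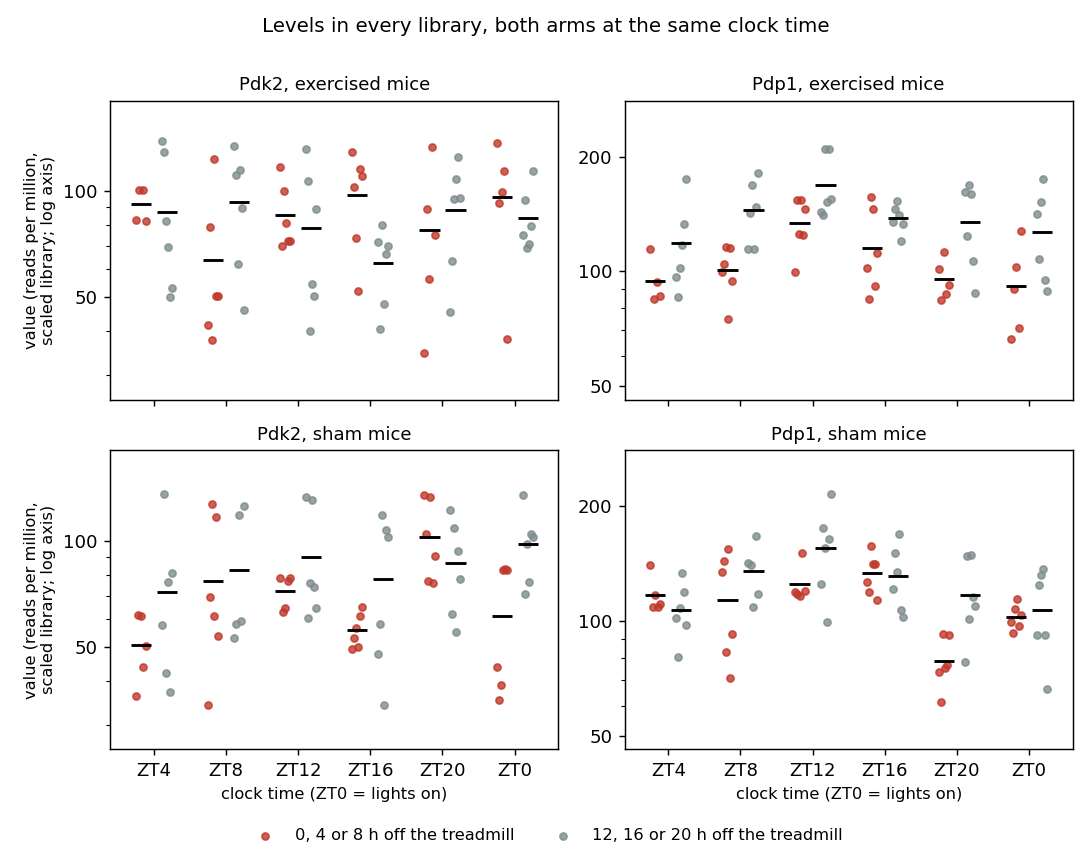
Values of Pdk2 and Pdp1 (log axis, unit inferred as reads divided by a scaled library size) in each library, drawn as for the other members. Red is the arm 0, 4 or 8 h off the treadmill, grey the arm 12, 16 or 20 h off it, and bars are means. The arms overlap at each clock time in exercised mice, and Pdp1 means are lower in the recent arm, by log2 differences of -0.29 to -0.51.

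The level of several members moved with the length slope within groups. Taking the slope into the fit lowered the SE at ZT16 from 0.30 to 0.16 for Pdk2, from 0.17 to 0.10 for Pdp1 and from 0.36 to 0.27 for Pdk4, but only from 0.26 to 0.24 for Ucp3 and from 0.40 to 0.39 for Angptl4. At ZT8 the mean slope was -0.07 ± 0.16 (SD, n = 6) in the recent and 0.12 ± 0.19 (SD, n = 6) in the earlier exercised arm; with the slope in the fit, the Pdk4 difference there was 1.80 ± 0.27 (adjusted p = 2.3e-06; limma). At ZT20 it was -0.01 ± 0.14 (SD, n = 5) in the recent and -0.08 ± 0.15 (SD, n = 6) in the earlier arm, and the Pdk4 difference was 2.45 ± 0.28 with the slope in the fit.

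Sham mice, which stood on the treadmill without running, gave part of the values that had led to the choice of these genes. Pdk4 differed most at ZT20, with values of 166 to 358 (median 226) in the recent and 30.4 to 115.4 (median 52.9) in the earlier sham arm, a difference of 2.02 ± 0.36. It differed by 1.59 ± 0.37 at ZT8, by 0.98 ± 0.36 at ZT16 and by 0.66 ± 0.37 at ZT12. At ZT4 and ZT0 the differences were -0.30 ± 0.37 and 0.03 ± 0.36; with the length slope in the fit they were 0.26 ± 0.28, with the sign turned, and 0.42 ± 0.27. The sham arms of Pdk4 did not overlap at ZT20, as held in this direction for 0.096% of all genes, and overlapped at the other clock times.

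Ucp3 in sham mice had non-overlapping arms at ZT4 (2.69% of all genes), ZT8 (0.131%) and ZT20 (0.096%). At ZT20 its values were 67.5 to 114.8 (median 77.0) in the recent and 14.6 to 39.1 (median 31.05) in the earlier sham arm, a difference of 1.58 ± 0.26. Its differences were 1.54 ± 0.28 at ZT8, 1.15 ± 0.26 at ZT16, 1.03 ± 0.28 at ZT4 and 0.73 ± 0.28 at ZT12, and -0.06 ± 0.26 at ZT0. Angptl4 in sham mice had non-overlapping arms at ZT8 (0.131% of all genes) and at ZT16 (0.672%). At ZT16 its values were 3.47 to 7.11 (median 6.23) in the recent and 0.931 to 2.35 (median 1.64) in the earlier sham arm, a difference of 1.58 ± 0.40, and at ZT8 the difference was 1.51 ± 0.42.

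The sham arms of Pdk2 and Pdp1 overlapped at every clock time. Pdk2 differed by -0.74 ± 0.30 at ZT0 and by 0.26 ± 0.30 at ZT20, which mark the ends of its range; with the slope in the fit these were -0.33 ± 0.16 and -0.02 ± 0.16, and its difference at ZT4 turned from -0.39 ± 0.32 to 0.20 ± 0.17. Pdp1 had its most negative sham difference at ZT20, -0.55 ± 0.17, with values of 61.5 to 92.7 (median 75.8) against 78.3 to 149 (median 112.8) in the earlier sham arm; at ZT4 its difference was 0.14 ± 0.18, which turned to -0.19 ± 0.10 with the slope in the fit, as 0.04 ± 0.17 at ZT16 turned to -0.21 ± 0.10. At ZT0 one library set the earlier sham arm apart: rest-phase sham replicate 6, the deepest library with 27589362 reads and a length slope of 0.31, had a Pdk4 value of 553 and a Ucp3 value of 106.2, while the other 5 averaged 111.7 and 28.01. Without replicate 6 of every group the sham difference at ZT0 was 0.48 ± 0.39 for Pdk4 and 0.30 ± 0.29 for Ucp3. Exercised and sham arms were not tested against each other for these differences.

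**Figure D3:**
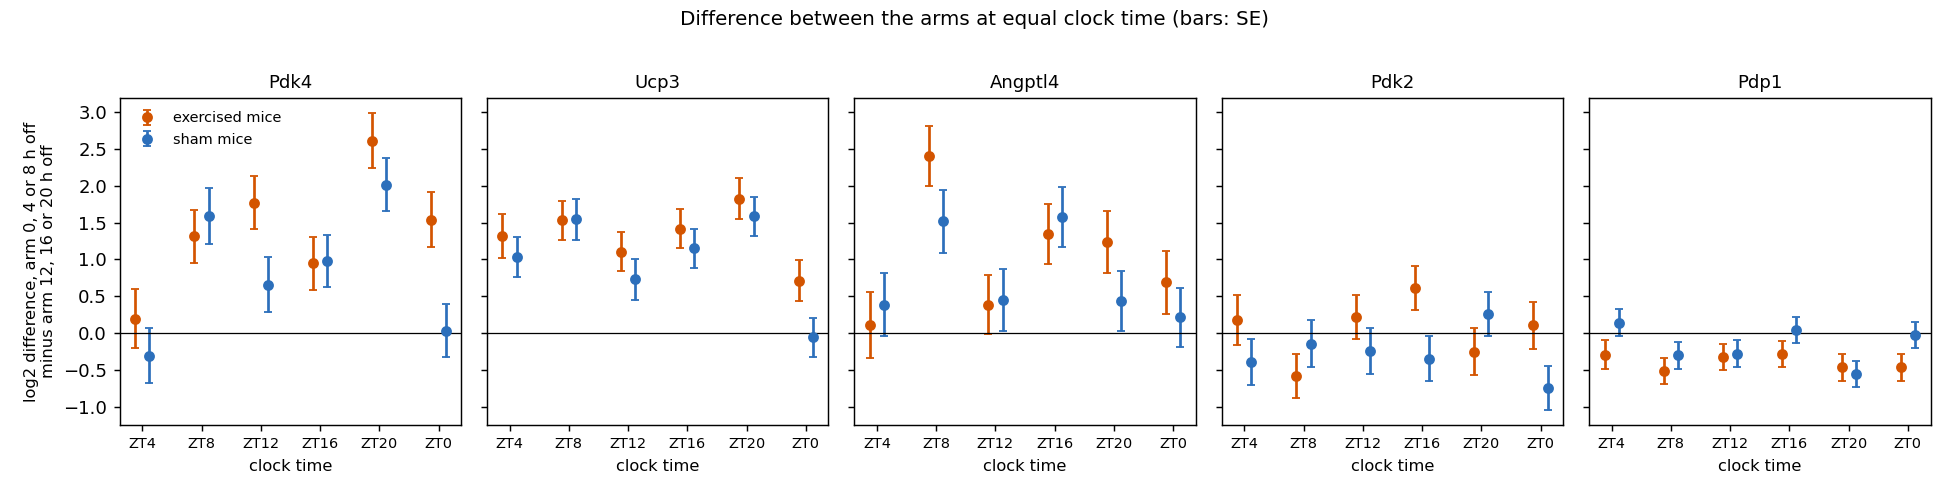
Log2 difference between the arm 0, 4 or 8 h off the treadmill and the arm 12, 16 or 20 h off it, at 6 clock times, for each of the 5 genes; orange points are exercised and blue points sham mice, and bars are SE. Pdk4 peaks at ZT20 in both, at 2.61 in exercised and 2.02 in sham mice, and Pdp1 lies below 0 at all 6 clock times in exercised mice.

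Exercise itself, set against sham of the same phase and hour, gave differences of -0.61 to 1.34 over the 5 genes, which are described here without a test. Pdk4 was higher in exercised mice 8 h after the treadmill in both phases. In the active phase its values were 193, 210, 326, 521 and 741 in exercised mice, against 99.1 to 163 (median 146) in sham mice, without overlap (0.689% of all genes), a difference of 1.34 ± 0.37. In the rest phase they were 169 to 401 (median 239) in exercised mice and 91.1, 113.7, 114.4, 147 and 175 in sham mice, which overlapped by a single pair, a difference of 0.97 ± 0.37. With the length slope in the fit these were 0.81 ± 0.28 and 0.94 ± 0.28. The mean slope 8 h after active-phase treadmill was 0.12 ± 0.21 (SD, n = 5) in exercised and -0.08 ± 0.09 (SD, n = 6) in sham mice.

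Ucp3 was higher in exercised mice 8 h after the treadmill by 0.76 ± 0.28 in the active and by 0.41 ± 0.28 in the rest phase, with overlap in both. Angptl4 had its largest exercise difference 4 h after rest-phase running, at 0.87 ± 0.40, with values of 7.38 to 24.7 (median 13.4) in exercised and 4.56 to 11.0 (median 6.83) in sham mice. Directly after running its difference was -0.33 ± 0.40 in the active and -0.61 ± 0.47 in the rest phase.

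Directly after running, Pdk2 had the largest difference of the 5 genes in both phases. In the active phase its values at 0 h were 52.1 to 129.3 (median 106.99) in exercised and 49.3 to 64.96 (median 54.8) in sham mice, a difference of 0.74 ± 0.30. In the rest phase they were 82.4 to 101.1 (n = 4) in exercised and 36.2 to 61.4 (n = 5) in sham mice, a difference of 0.88 ± 0.35. Those groups did not overlap, but neither did those of 12.7% of all genes in this direction. The mean length slope there was -0.01 ± 0.03 (SD, n = 4) in exercised and -0.18 ± 0.06 (SD, n = 5) in sham mice, and with the slope in the fit the Pdk2 difference was 0.36 ± 0.16 in the active and 0.41 ± 0.19 in the rest phase. Pdp1 differed at 0 h by -0.24 ± 0.17 in the active and by -0.31 ± 0.20 in the rest phase, and by -0.02 ± 0.10 and -0.05 ± 0.11 with the slope in the fit. The active-phase minus rest-phase difference of the exercise effect was largest for Pdk4 at 16 h, at 1.11 ± 0.52, where the effect was 0.63 ± 0.37 in the active and -0.48 ± 0.36 in the rest phase.

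**Figure D4:**
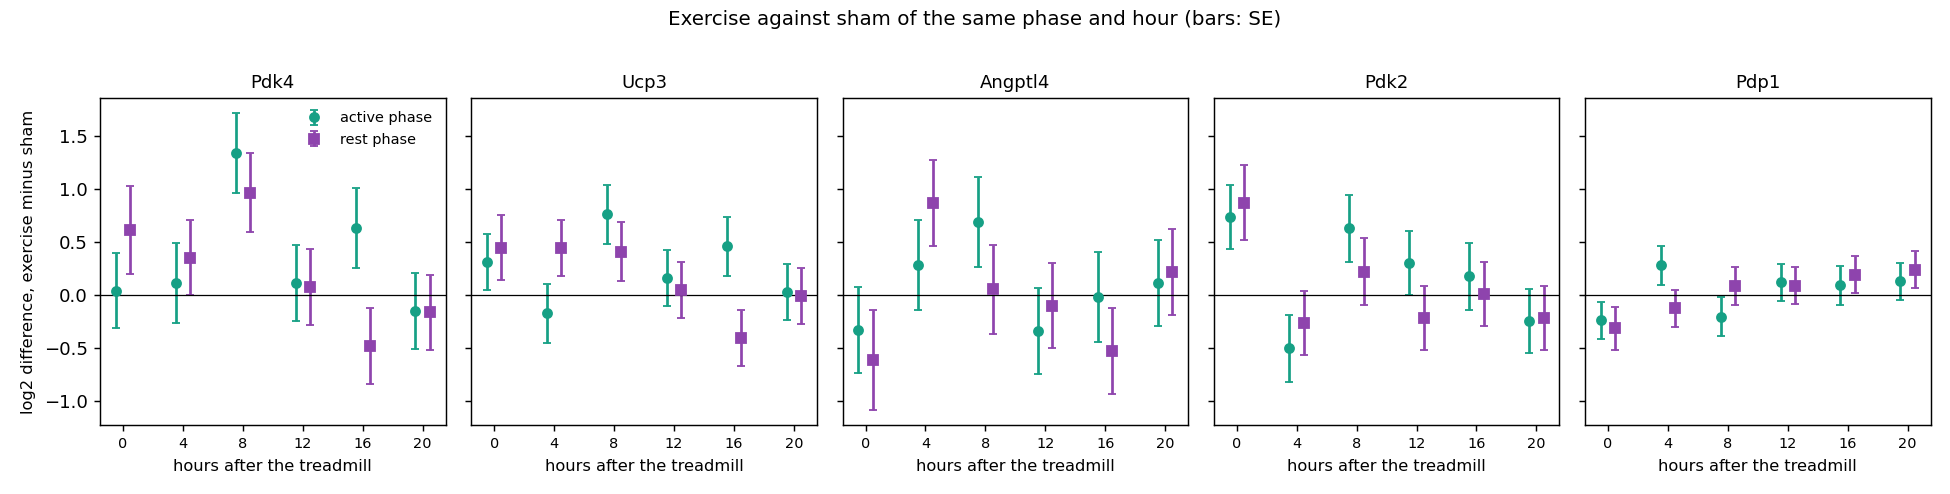
Log2 difference between exercised and sham mice of the same phase and hour after the treadmill, for each of the 5 genes; green circles are the active phase and purple squares the rest phase, and bars are SE. Pdk4 stands at 1.34 in the active and 0.97 in the rest phase at 8 h, and Pdk2 at 0.74 and 0.88 at 0 h.

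Over the day, the highest mean of Pdk4 fell 4 h after the treadmill in 3 of the 4 series and 8 h after it in active-phase exercised mice. In active-phase exercised mice the 6 means, in order of hours after the treadmill, were 129.2 ± 53.2, 257 ± 97.7, 398 ± 232, 168 ± 61.5, 134.5 ± 73.3 and 74.4 ± 23.04 (SD, n = 5 or 6). In active-phase sham mice they were 121.6 ± 41.1, 233 ± 67.7, 139.1 ± 24.8, 159 ± 68.3, 81.1 ± 34.8 and 80.0 ± 12.9 in the same order. In rest-phase exercised mice they were 191 ± 62.3, 314 ± 121.4, 254 ± 77.9, 67.4 ± 31.6, 42.1 ± 15.8 and 143.02 ± 82.03 (SD, n = 4 or 6). In rest-phase sham mice they were 126.2 ± 48.4, 251 ± 116.3, 128.2 ± 32.9, 62.4 ± 21.9, 61.7 ± 31.9 and 185 ± 188 in the same order.

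A cosine of 24 h period gave Pdk4 an amplitude of 1.011 on the log2 scale with a peak at ZT23.3 in active-phase exercised mice, and of 0.68 with a peak at ZT21.9 in active-phase sham mice. In the rest phase it gave 1.42 with a peak at ZT7.50 in exercised and 0.91 with a peak at ZT6.48 in sham mice. The median amplitude of all genes was 0.13 to 0.14 in these series. Within a series, clock time and hours after the treadmill run together, so the cosine cannot tell a daily rhythm from recovery. Ucp3 peaked at ZT20.4 and ZT19.6 in active-phase exercised and sham mice (amplitudes 0.80 and 0.87) and at ZT6.86 and ZT6.19 in rest-phase exercised and sham mice (1.13 and 0.75). Angptl4 peaked at ZT23.6 and ZT0.147 in active-phase exercised and sham mice (amplitudes 0.99 and 0.72) and at ZT5.27 and ZT4.45 in rest-phase exercised and sham mice (1.48 and 1.23). Pdp1 peaked at ZT10.3 and ZT10.7 in active-phase exercised and sham mice (amplitudes 0.43 and 0.40) and at ZT17.2 and ZT14.3 in rest-phase exercised and sham mice (0.27 and 0.12). Pdk2 had amplitudes of 0.02 to 0.23, so a peak time says little for it.

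Ordered by mean over the 24 groups, Pdk4 ran from 398 ± 232 (SD, n = 5; active-phase exercised, 8 h) to 42.1 ± 15.8 (SD, n = 6; rest-phase exercised, 16 h), a ratio of 9.47. Ucp3 ran from 93.96 ± 24.7 (SD, n = 6; rest-phase exercised, 4 h) to 21.2 ± 5.51 (SD, n = 6; rest-phase exercised, 16 h), a ratio of 4.44. Angptl4 ran from 14.3 ± 5.83 (SD, n = 6; rest-phase exercised, 4 h) to 1.29 ± 0.559 (SD, n = 6; active-phase sham, 20 h), a ratio of 11.1. Pdp1 ran from 168 ± 32.4 (SD, n = 6; active-phase exercised, 20 h) to 78.6 ± 12.0 (SD, n = 6; active-phase sham, 4 h). Pdk2 ran from 102.8 ± 26.4 (SD, n = 6; active-phase sham, 4 h) to 50.6 ± 11.0 (SD, n = 5; rest-phase sham, 0 h). For none of the 5 genes did any of the 23 pairs of neighbours in that order differ by more than the larger of their SDs.

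Likeness of profile was measured as Pearson correlation over the 24 group means, which share clock times and arms, among 8034 other genes. The genes most like Pdk4 were Tcp11l2 (r = 0.82), Pank1, which encodes a kinase of coenzyme A synthesis (0.82), Ucp3 (0.81), Ppargc1a, the transcriptional coactivator PGC-1 alpha (0.78), and Tmem106b (0.77). The least like it were Apbb2 (-0.74), Ube2g1 (-0.69) and Pdp1 (-0.67). Ucp3 was closest to Nr4a3, an orphan nuclear receptor gene (0.86), then Pdk4 (0.81) and Gpr146 (0.79). Angptl4 was closest to Serpinh1 (0.84), which encodes a collagen chaperone, Anxa2 (0.81) and Btg1 (0.79). Pdp1 was closest to Srpk2 (0.82), Dusp14 (0.78) and the clock gene Per3 (0.76). Pdk2 was closest to Grina (0.97), Lrrc20 (0.97) and Ddx24 (0.97), and its correlation with Pdk4 was 0.05. These group means were not adjusted for the length slope. The Pdk2 mean was lowest in rest-phase sham mice at 0 h, where the mean slope was -0.18. It was highest in active-phase sham mice at 4 h, where the mean slope was 0.10. The part of the slope in these correlations was not tested.

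Other genes of the pathway were counted in lists chosen with earlier results of these data known. Of 10 measured genes of the pyruvate dehydrogenase complex and pyruvate entry, none passed in any exercised comparison between arms, and the list medians lay between 0.00 and 0.18 on the log2 scale against medians of all genes between -0.01 and 0.03. Of 18 measured fatty acid oxidation genes that fasting switches on, none passed at a single clock time (list medians -0.09 to 0.13) and Ucp2, a relative of Ucp3, passed over all clock times (adjusted p = 0.014; limma F test). That is 1 of 18 genes, against 4.18% of all genes, and the count was 0 without replicate 1, 3, 5 or 6 of every group. Of 15 genes of lipoprotein lipase and triglyceride handling (list medians -0.21 to 0.26), 1 passed at a single clock time. This was G0s2, an inhibitor of adipose triglyceride lipase, which fell at ZT16, with a mean of 43.9 ± 29.6 (SD, n = 6) in the recent and 196 ± 81.2 (SD, n = 6) in the earlier exercised arm. That difference was -2.30 ± 0.44 (adjusted p = 0.00012; limma; 0.855% of all genes fell). Over all clock times 2 of the 15 passed, G0s2 (adjusted p = 0.00012; limma F test) and the lipid droplet gene Plin5 (adjusted p = 0.026; limma F test), against 4.18% of all genes, and 1 passed without replicate 1, 2 or 5 of every group.

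The 19 genes listed as regulators of the fasting programme were also chosen with earlier results of these data known. Of them, 5 rose in the recent exercised arm at ZT16 (2.6% of all genes), 3 at ZT4 (0.593%) and 1 at ZT20 (0.131%), and none fell at these clock times. The list medians ran from -0.07 at ZT8 to 0.53 at ZT16. At ZT16 the risers were Irs2, an adaptor of insulin signalling (2.69 ± 0.41), Cebpd (1.38 ± 0.29), Cebpb (1.26 ± 0.25), Tsc22d3, a glucocorticoid target (1.02 ± 0.16), and Klf15 (0.86 ± 0.21). Irs2 varied widely in the recent arm, with a mean of 65.1 ± 57.3 (SD, n = 6), against 6.95 ± 0.79 (SD, n = 6) in the earlier arm. At ZT4 Cebpd rose by 2.13 ± 0.33, Cebpb by 1.66 ± 0.28 and Tsc22d3 by 1.33 ± 0.18, a clock time at which Pdk4 did not pass. At ZT20, where Pdk4 and Ucp3 differed most, Ppargc1a had a mean of 51.2 ± 9.84 (SD, n = 5) in the recent and 13.9 ± 2.68 (SD, n = 6) in the earlier exercised arm, a rise of 1.84 ± 0.29 (adjusted p = 9.8e-06; limma).

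In sham mice, Tsc22d3 rose in the recent arm at ZT4 by 0.97 ± 0.17, where 0.105% of all genes rose. At ZT16 Cebpd (1.83 ± 0.29), Tsc22d3 (0.89 ± 0.16) and Klf15 (0.87 ± 0.21) rose, where 0.532% of all genes did. With exercise set against sham at 0 h, Irs2 rose in the active phase by 2.31 ± 0.41 (0.977% of all genes rose), and Irs2 and Cebpb rose in the rest phase by 1.95 ± 0.47 and 1.26 ± 0.30 (0.332% of all genes rose). No list gene of the other 3 groups passed in any exercise comparison.

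Library totals, recovered from the values, ran from 2193875 to 27589362 reads with a median of 11036521, and 6 libraries had a median correlation under 0.9 with their own group. The summed value of 8 skeletal muscle fibre markers ran from 78713 to 202724 over the libraries, against 670 to 1859 for 7 adipocyte, 174 to 1142 for 6 slow fibre, 35.6 to 193 for 5 endothelial and 36.1 to 136.8 for 5 macrophage markers, and the lowest mean of any marker was 1.80, for macrophage Cd68. Ckm, the muscle creatine kinase gene and one of the fibre markers, rose in the recent exercised arm at ZT4 (0.88; 0.593% of all genes rose) and ZT16 (1.28; 2.6%) and in the recent sham arm at ZT16 (0.88; 0.532%; limma). Acta1, the skeletal actin gene and another fibre marker, rose in the recent exercised arm at ZT16 (1.09; adjusted p = 0.0040; limma), where the fibre marker sum was 145196 ± 15974 (SD, n = 6) in the recent and 111092 ± 10709 (SD, n = 6) in the earlier arm. In sham mice at ZT16 that sum was 161157 ± 30073 (SD, n = 6) in the recent and 110413 ± 11670 (SD, n = 6) in the earlier arm. None of the other fibre markers passed between arms. The part of the fibre markers in the Ucp3 and Angptl4 differences at ZT4 and ZT16 was not tested. The labels name no batch and number the replicates without naming animals, so p values measure the spread between these libraries.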

How the data were processed

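Per the labels' protocols, gastrocnemius RNA was depleted of ribosomal RNA and made into stranded paired-end libraries. Per the submitters' processing notes, the tools included STAR 2.5.3a, featureCounts 1.5.2 and edgeR 3.2.23, with the mm10 (GRCm38) build. Each deposited file gives a signal for every gene, which the authors had scaled to a common library size. Dividing by the smallest step of a library returned whole reads (tolerance 0.05), so depth is known. Of 140 labelled samples, 3 were not analysed here. Names and positions came from the GENCODE annotation of GRCm38 (11449 of 11461 identifiers matched).

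One limma 3.58.1 model (R 4.3.3; trend and robust options) of 24 groups was fitted to log2(signal + 0.5) of all deposited genes, and passing means an adjusted p below 0.05. The fitting steps were run on simulated counts with the same dispersion for every gene and no length slope. That run does not measure how the fit does on libraries as varied as these. Daily profiles are least-squares cosine and sine terms of 24 h. The members and lists were chosen with earlier results of these data known. Genes named are the members, list genes that passed and the most alike profiles. edgeR 4.0.16 and DESeq2 1.42.0 on recovered reads, other pseudocounts, filters, scalings, covariates and left-out libraries were alternatives. The length slope used 10801 protein-coding genes.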

Additional observations from a re-analysis of the deposited data

Results flagged for a closer look

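Within the 24 groups, the highest or lowest library of each of the 5 genes was set against the others (120 groups tested by Dixon's ratio), and 7 values stood apart; chance gives about 1 in 20. In rest-phase sham mice at 20 h, replicate 6 had a Pdk4 value of 553 (next highest 208) and a Ucp3 value of 106.2 (next highest 34.6), with 27589362 reads and a length slope of 0.31. In rest-phase exercised mice at 8 h, replicate 1 had a Pdk4 value of 401 (next 254). In rest-phase exercised mice at 12 h, replicate 5 had a Ucp3 value of 36.9 (next 25.7). In active-phase sham mice at 12 h, replicate 3 had an Angptl4 value of 27.3 (next 8.75). In rest-phase sham mice, Pdp1 stood apart in replicate 1 at 0 h with a value of 140.3 (next 116.9) and in replicate 5 at 8 h with 151 (next 120.2).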

How the results depend on the processing

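No result changed sign with a call. Passes for Pdk4 at ZT20, Ucp3 at ZT16 and ZT20 and Angptl4 at ZT8, and the joint tests of Pdk4, Ucp3 and Angptl4, held under every alternative run. Ucp3 lost its pass with the libraries of the contrast alone at ZT8 (1.53, adjusted p = 0.086) and ZT12 (1.11, 0.25), and with edgeR at ZT12 (1.07, 0.055). Angptl4 at ZT16 lost it with a pseudocount of 2 (0.91, 0.065) and edgeR (1.57, 0.099). With 1 replicate number left out in turn, Ucp3 ranged from 1.159 to 1.55 at ZT4 and from 0.79 to 1.35 at ZT12, Pdk4 from 1.64 to 1.92 at ZT12, Angptl4 from 1.1597 to 1.46 at ZT16, and the joint adjusted p of Pdp1 from 0.0035 to 0.075. The joint Pdk2 test passed with the length slope (0.011), with replicate strata and slope, chosen after seeing the data (0.0046), and with array weights (0.00015); the cause was not tested. Pdk4 at ZT8 also passed with relative log expression scaling (0.0497), replicate strata, chosen after seeing the data (0.049), and array weights (0.0018). At ZT0 it passed with DESeq2 (0.049), array weights (5.7e-08), replicate strata and slope (0.038) and without replicate 6 (0.022). Pdk2 at ZT8, -0.58 as reported, was -0.07 with the slope (adjusted p = 0.9996) and -0.96 with array weights (0.00031). Array weights also passed Ucp3 at ZT0 (0.0034) and Pdp1 at ZT8 (0.0073) and ZT0 (3.8e-05), the last also without replicate 6 (0.045). Over the alternatives, the genes called between exercised arms numbered from 5 to 6066 at ZT8 and from 0 to 6254 at ZT0.

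Of 11461 genes, 479 passed jointly, from 227 without replicate 1 to 1213 with the slope and 8872 with array weights. Same-numbered libraries correlated over 0.1 in 34 of 65 pairs between arms (median r = 0.12, from -0.87 to 0.83). Between exercised and sham mice 36 of 66 pairs did (median r = 0.14, from -0.75 to 0.89). Whether equal numbers mark paired samples is not settled by these values, and the reported fit did not pair them. With the replicate block 549 genes passed and the joint adjusted p of Pdp1 was 0.0086 (limma F test). With replicate strata, chosen after seeing the data, 589 genes passed. DESeq2 gave no joint test. Low counts limit Angptl4 most.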
